A study of Rattus norvegicus with 6 samples.

Results

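SMADs and genes that respond to transforming growth factor beta (TGF-beta) were examined in rat abdominal aortas with aneurysm. The 10 genes are Smad2, Smad3, Smad4, Smad6, Smad7, Skil, Ccn2, Tgfbi, Bambi and Inhba, taken by name from a table of 24988 genes, and all 10 passed the filter on low counts that left 16522 genes for testing. The animals were Sprague-Dawley rats. Aortas of 3 libraries carried an untreated aneurysm, and aortas of the other 3 carried an aneurysm treated with NP, which the series title describes as targeted nanotherapy. Every library came from aneurysmal tissue, so no level of an aorta without aneurysm was available for comparison. The composition, dose and timing of NP, the way the aneurysm was induced, and the age and sex of the animals are not stated in the labels used here.

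TGF-beta and activin ligands bind serine/threonine kinase receptors, which phosphorylate SMAD2 and SMAD3. These bind the common mediator SMAD4, enter the nucleus and act on transcription. SMAD6 and SMAD7 are inhibitory SMADs, and SMAD7 and SKIL (SnoN) are themselves induced by the signal that they dampen. In the aorta the pathway acts on smooth muscle cells and adventitial fibroblasts and is known for its control of matrix production, and inherited defects in it cause aneurysm in humans. The activating step is a phosphorylation of protein, which RNA abundance does not measure.

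Total counts per library ranged from 26100468 to 30939002. In the tissue as a whole the smooth muscle markers Myh11, Acta2, Tagln, Cnn1, Smtn and Des summed to 2568 to 2901 CPM (counts scaled to equal library size) in untreated and 2298 to 4624 CPM in treated libraries. The adventitial fibroblast markers Pdgfra, Dcn, Lum, Pi16, Dpt and Col1a1 summed to 14449 to 16354 CPM untreated and 9325 to 20033 CPM treated. The endothelial markers Cdh5, Vwf and Tie1 summed to 558 to 715 CPM untreated and 331 to 1139 CPM treated, Cldn5 was listed at 0 in all 6 libraries, and Pecam1 was not analysed here. Macrophage markers (6 of 6 measured) summed to 13444 to 28008 CPM untreated and 9611 to 27197 CPM treated. Treated replicate 3 had the highest smooth muscle, fibroblast and endothelial sums and the lowest macrophage sum. Its fibroblast sum was mostly Col1a1, at 17056 CPM, the only fibroblast marker that was highest in that library. Pi16, at 105 CPM, was lowest there. Acta2 (1909 CPM), Cnn1 and Smtn were highest in it too, but Myh11 and Tagln in treated replicate 2 and Des in treated replicate 1. The macrophage sum was mostly Lyz2, at 7914 CPM in treated replicate 3, where the macrophage markers Lyz2, Cd68, Csf1r and C1qa were lowest. Cd163 was lowest in treated replicate 1, and Adgre1, at 100 CPM in treated replicate 3, was higher only in untreated replicate 2. Treated replicate 1 had the lowest smooth muscle, fibroblast and endothelial sums. Adipocyte markers (6 of 6 measured) summed to 476 to 608 CPM untreated and 34.8 to 180 CPM treated. Their fold changes were below 1 in all 6, and their groups did not overlap in 5. Neutrophil markers (5 of 5 measured) summed to 39.8 to 73.4 CPM untreated and 8.77 to 33.0 CPM treated, with groups that did not overlap in 2. Over all tested genes, groups did not overlap in 5.67% and fold changes were above 1 in 55.6%. None of these adipocyte and neutrophil markers passed the adjusted threshold by edgeR, and their part in the values of the 10 genes was not tested. T cell, B cell, mast cell and skeletal muscle marker sums reached at most 96.9 CPM in any library, and the summed levels of the groups overlapped in each of these 4 lists. Fold changes were above 1 in 0 of 4 T cell, 0 of 4 B cell, 1 of 5 mast cell and 3 of 5 skeletal muscle markers. Gene by gene, the groups did not overlap in 2 of the 5 mast cell markers. The highest mast cell sum, 70.4 CPM in treated replicate 1, was mostly Kit, at 68.2 CPM. In such bulk samples fewer cells of a type and less RNA per cell cannot be told apart.

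The promoter windows of 4 genes that varied widely between libraries are shown because their RNA levels were high and low in many of the same libraries. The sequences are from RefSeq on the GRCr8 build, which held windows for 9 of the 10 genes, and cover 250 bases before to 50 bases after the start site that the table gives. The windows lie at chr18:71263258-71263557 on the plus strand for Smad7, chr2:114203523-114203822 on the minus strand for Skil, chr1:22624565-22624864 on the minus strand for Ccn2 and chr17:53804459-53804758 on the minus strand for Inhba. Capitals mark matches to the motifs named after the sequences.
Smad7: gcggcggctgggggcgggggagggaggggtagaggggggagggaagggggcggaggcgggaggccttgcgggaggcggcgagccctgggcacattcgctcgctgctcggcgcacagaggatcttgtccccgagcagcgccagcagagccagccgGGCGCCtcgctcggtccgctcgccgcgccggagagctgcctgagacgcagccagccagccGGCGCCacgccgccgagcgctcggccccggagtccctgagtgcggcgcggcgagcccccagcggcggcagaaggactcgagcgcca
Skil: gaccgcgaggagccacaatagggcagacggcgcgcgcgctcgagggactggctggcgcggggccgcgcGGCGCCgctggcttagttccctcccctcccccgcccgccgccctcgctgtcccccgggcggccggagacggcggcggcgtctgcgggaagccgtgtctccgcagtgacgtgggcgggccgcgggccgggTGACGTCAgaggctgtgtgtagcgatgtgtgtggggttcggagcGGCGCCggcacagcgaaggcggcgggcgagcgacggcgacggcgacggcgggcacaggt
Ccn2: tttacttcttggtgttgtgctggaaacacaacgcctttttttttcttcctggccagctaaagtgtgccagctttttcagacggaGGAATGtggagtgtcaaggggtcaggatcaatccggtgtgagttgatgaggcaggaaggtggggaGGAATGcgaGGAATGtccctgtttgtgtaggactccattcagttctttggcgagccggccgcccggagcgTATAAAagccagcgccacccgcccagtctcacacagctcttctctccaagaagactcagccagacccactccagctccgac
Inhba: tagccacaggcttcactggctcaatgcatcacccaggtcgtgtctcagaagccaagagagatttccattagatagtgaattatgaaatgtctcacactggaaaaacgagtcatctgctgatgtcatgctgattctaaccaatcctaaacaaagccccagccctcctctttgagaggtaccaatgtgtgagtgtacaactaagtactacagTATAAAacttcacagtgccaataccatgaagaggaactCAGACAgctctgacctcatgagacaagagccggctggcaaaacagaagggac

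The Ccn2 window held GGAATG, the core bound by TEAD factors, at 166, 101 and 92 bases before the start, and the TATA-box motif, spelled TATAAA, at 31 bases before it. GGAATG occurred in 14.2% of 33469 rat windows of this length, and 3 or more matches occurred in 0.0956%. The Skil window held the cyclic AMP response element TGACGTCA at 53 bases before the start, a motif present in 1.83% of windows. GGCGCC, a GC-rich motif that SMAD proteins can bind, was found in 6 of the 9 genes with a window, among them Skil and Smad7 with 2 matches each, and in 11% of all windows. The Inhba window held TATAAA at 40 bases before the start (14.2% of windows) and CAGACA, an extended form of the CAGA box that SMADs bind, at 2 bases before it (21.1% of windows). The palindromic SMAD element GTCTAGAC, present in 0.197% of windows, and the E-box CACGTG, present in 6.42%, were not found in these windows of any of the 9 genes. Both strands were searched, no 2 of the marked matches overlap, and a match is a description of the sequence only.

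Levels were compared between genes per transcript length, as the authors' FPKM (fragments scaled by transcript length and library size). Over all 6 libraries the order of mean FPKM was Ccn2 at 125 ± 82.5, Tgfbi at 73.8 ± 12.7, Smad4 at 14.0 ± 3.38, Smad2 at 8.78 ± 0.705, Smad6 at 5.81 ± 4.36, Smad3 at 4.09 ± 0.525, Smad7 at 3.71 ± 2.07, Skil at 3.40 ± 1.72, Bambi at 2.81 ± 1.16 and Inhba at 1.43 ± 0.866 FPKM (mean ± SD, n = 6). The secreted matrix proteins encoded by Ccn2 and Tgfbi stood at the top, above 97.0% and 94.9% of the tested genes in FPKM. Ranges overlapped in 8 of the 9 neighbouring pairs, and the break was between Tgfbi, with at least 57.0 FPKM, and Smad4, with at most 17.9 FPKM. Ccn2 exceeded Tgfbi in FPKM in 3 of 6 libraries. Among the SMADs, Smad2 exceeded Smad3 and Smad6 exceeded Smad7 in 6 of 6 libraries each.

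**Figure D1:**
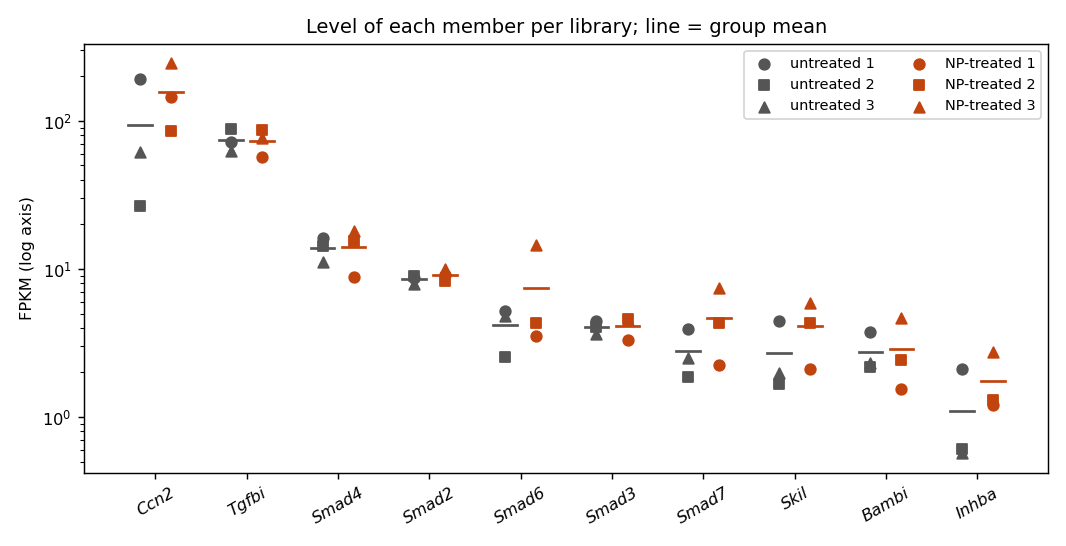
FPKM on a log axis of the 10 genes in each of the 6 libraries, ordered by mean, with grey symbols for untreated and orange symbols for NP-treated libraries and a line at each group mean. Ccn2 spans 26.6 to 244 FPKM and Tgfbi 57.0 to 88.5 FPKM, and in every gene the groups overlap.

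NP-treated aortas were compared with untreated aortas by edgeR's quasi-likelihood test over all 16522 genes, to ask which transcripts differed with treatment. None of the 10 genes passed an adjusted p of 0.05, and neither did any of the 16522 tested (0%). At an unadjusted p under 0.05 there were 0 of the 10 genes, against 319 of all genes (1.93%), and the smallest unadjusted p was that of Smad7. With 1 library left out, between 175 and 693 of all genes passed that unadjusted threshold, and of the 10 genes there were 3 without untreated replicate 1 (Skil, Ccn2 and Inhba, among 594 genes), 1 without treated replicate 1 (Smad7, among 562 genes) and 0 without any of the other 4 libraries. By limma-voom with library weights there were 2 of the 10 genes (Smad7 and Skil, among 489 genes). DESeq2 called 26 genes (0.157%), limma-voom 0 genes (333 genes, or 2.02%, before adjustment) and limma 1 gene (0.00605%) when run on log2(FPKM + 1). These calls included 0 of the 10 genes. In all 10 genes the treated and untreated CPM ranges overlapped, whereas 5.67% of all genes did not overlap. Fold changes were above 1 in 9 of the 10 genes, where 55.6% of all genes had one, and their median log2 fold change was 0.36, beside 0.04 over all genes tested. That median rested on treated replicate 3. Without that library it was 0.03, with fold changes above 1 in 5 of the 10 genes, and without untreated replicate 1 it was 0.65. The count of genes above 1 also depended on the fit. It was 7 of 10 by limma-voom and by limma on log2(FPKM + 1), and 10 of 10 by limma-voom with library weights.

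Smad2 and Smad3, which encode the receptor-activated transducers, were among the steadiest of the genes. Smad2 was at 26.8, 29.4 and 26.0 CPM in untreated replicates 1, 2 and 3, and at 33.5, 24.2 and 31.3 CPM in treated replicates 1, 2 and 3. Smad3 measured 26.5, 25.6 and 23.2 CPM without treatment and 23.6, 26.5 and 27.4 CPM with NP. The untreated values of Smad2 lay inside the range of the treated ones, and those of Smad3 extended just below it. Log2 fold changes, treated minus untreated, were 0.11 (SE 0.19, 95% interval -0.33 to 0.56) for Smad2 and 0.04 (SE 0.17, -0.35 to 0.43) for Smad3, each with an adjusted p of 1 by edgeR. Smad3 had a smaller within-group spread on the log2 CPM scale than 97.1% of all tested genes.

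Smad4, the common mediator that joins both the TGF-beta and the BMP branch, had 39.3, 36.6 and 28.5 CPM in untreated libraries, against 25.7, 35.7 and 44.3 CPM after NP. The treated libraries held both the lowest and the highest value. Its log2 fold change was 0.02 (SE 0.25, 95% interval -0.56 to 0.60), with a sign that turned in other fits (-0.18 without treated replicate 3). For Smad2, Smad3, Smad4 and Tgfbi, 4 of the 10 genes, the 95% interval held neither a 2-fold higher nor a 2-fold lower level, and for the other 6 it reached a 2-fold higher one.

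Smad7, whose product blocks receptors and recruits SMURF ubiquitin ligases to them, measured 20.1, 10.1 and 13.5 CPM without treatment and 13.6, 20.9 and 38.8 CPM with NP. Treated replicate 3 stood at the top and untreated replicate 2 at the bottom, and treated replicate 1 lay among the untreated values. The log2 fold change was 0.74 (SE 0.43, 95% interval -0.26 to 1.75, unadjusted p = 0.123 and adjusted p = 1 by edgeR), and 0.24 without treated replicate 3. Smad6, the inhibitory SMAD that acts chiefly on the BMP branch and is abundant in endothelium, had 8.42, 4.42 and 8.30 CPM in untreated libraries, against 6.86, 6.77 and 24.1 CPM after NP. A single library, treated replicate 3, carried its group mean. Its log2 fold change was 0.83 (SE 0.56, 95% interval -0.48 to 2.15) with all libraries and -0.05 without that one.

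Treated replicate 3 also had the highest endothelial marker sum, 1139 CPM against 331 to 890 CPM in the other 5 libraries. Treated replicates 1 and 2 had endothelial sums of 331 and 890 CPM and Smad6 values of 6.86 and 6.77 CPM. In these 2 libraries Vwf was at 39.5 and 436 CPM, Cdh5 at 38.7 and 136 CPM and Tie1 at 253 and 317 CPM. The part of endothelial cells in the Smad6 values was not tested. Smad6 to Smad7 ratios of FPKM were 1.31, 1.36 and 1.92 untreated and 1.58, 1.01 and 1.95 treated. The mean log2 ratio differed by -0.05 between groups, less than the spread between replicates (exact two-sided permutation p = 1, n = 3 each).

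Skil, which encodes a repressor of SMAD complexes, measured 13.3, 5.37 and 6.28 CPM without treatment and 7.58, 12.3 and 18.1 CPM with NP. Its highest libraries were treated replicate 3 and untreated replicate 1. The log2 fold change was 0.61 (SE 0.45, 95% interval -0.46 to 1.67), 0.25 without treated replicate 3 and 1.12 without untreated replicate 1. Bambi, a receptor-like protein that lacks the kinase domain and dampens signalling, had 6.54, 4.03 and 4.30 CPM in untreated libraries, against 3.23, 4.07 and 8.27 CPM after NP. Its lowest and highest values were both in treated libraries. Its log2 fold change was 0.07 (SE 0.44, 95% interval -0.96 to 1.10), and -0.44 without treated replicate 3.

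Ccn2, the connective tissue growth factor and a textbook TGF-beta target in fibroblasts and smooth muscle, spanned the widest range of the 10 genes. It stood at 539, 81.0 and 187 CPM without treatment and 484, 231 and 704 CPM with NP, an 8.70-fold distance between the lowest and the highest library. Untreated replicate 1 was above 2 of the 3 treated libraries, and untreated replicates 2 and 3 were below all of them. The log2 fold change was 0.81 (SE 0.70, 95% interval -0.82 to 2.45), 1.82 without untreated replicate 1, 0.38 without untreated replicate 2 and 0.41 without treated replicate 3. Counts of Ccn2 were 2233 to 20000, so counting error is small beside this range.

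Tgfbi, which encodes a secreted protein that binds collagens and integrins and was named for its induction by TGF-beta, had 227, 299 and 210 CPM in untreated libraries, against 216, 264 and 246 CPM after NP. Its highest library was untreated replicate 2, where Ccn2 was lowest. The log2 fold change of Tgfbi was -0.02 (SE 0.21, 95% interval -0.52 to 0.48), and 0.15 without untreated replicate 2. Inhba encodes the subunit that pairs with itself to form activin A, a ligand that also acts through SMAD2 and SMAD3. It stood at 6.44, 1.99 and 1.85 CPM without treatment and 4.35, 3.82 and 8.59 CPM with NP, with untreated replicate 1 above 2 of the treated libraries. The log2 fold change of Inhba was 0.70 (SE 0.60, 95% interval -0.69 to 2.10), 1.54 without untreated replicate 1 and 0.25 without treated replicate 3. The lowest Inhba count was 55, with an exact Poisson 95% interval of 41.4 to 71.6 that covers counting error only.

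**Figure D2:**
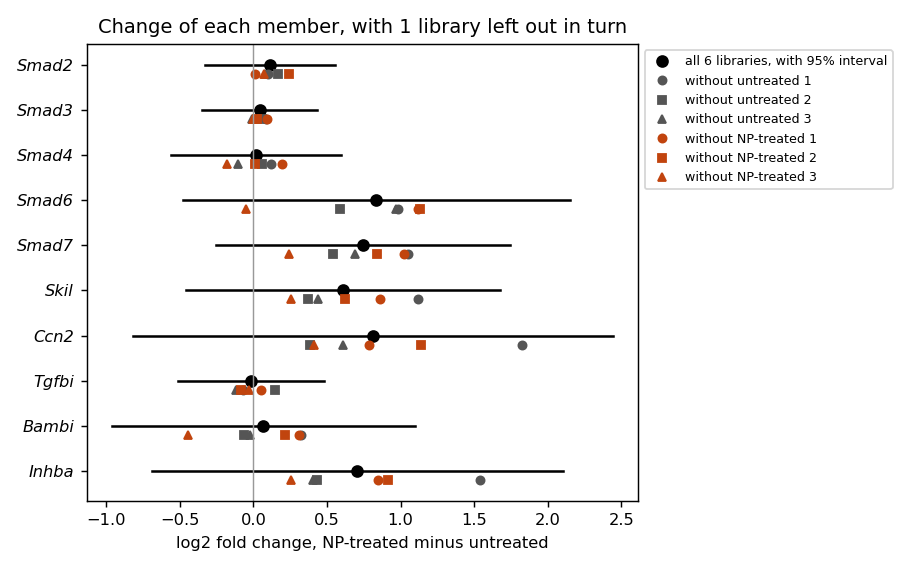
Log2 fold change of the 10 genes, treated minus untreated (black points, with 95% intervals by edgeR), and the same value with each library left out in turn (coloured symbols). Smad6 goes from 0.83 to -0.05 without treated replicate 3, and Ccn2 to 1.82 without untreated replicate 1, while Smad3 stays between -0.01 and 0.09.

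The genes fell into steady and variable ones by their within-group spread, taken as 1 value pooled over both groups. The within-group SD of log2 CPM was 0.11 for Smad3, 0.19 for Smad2, 0.21 for Tgfbi and 0.33 for Smad4, all below the median of 0.39 over all genes tested. It was 0.56 for Bambi, 0.64 for Smad7, 0.66 for Skil, 0.82 for Inhba, 0.83 for Smad6 and 1.13 for Ccn2, all above it. Ccn2 varied more within groups than 91.6% of the tested genes. The median over the 10 genes was 0.60, and their median ratio of highest to lowest CPM was 2.97, beside 2.07 over all genes.

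**Figure D3:**
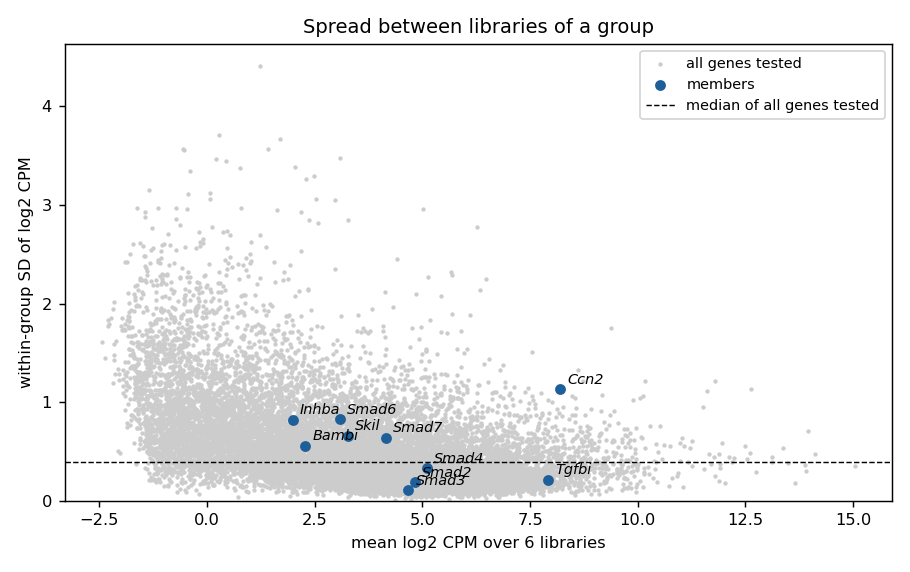
Within-group SD of log2 CPM against mean log2 CPM over the 6 libraries, for all genes tested (grey) and the 10 genes (blue), with the median of all genes as a dashed line. Ccn2 has the largest SD of the 10 genes, 1.13, and Smad3 the smallest, 0.11.

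The variable genes were high and low in many of the same libraries. In CPM, treated replicate 3 was the highest library in 8 of the 10 genes. Treated replicate 3 and untreated replicate 1 were both above the other 4 libraries in 7 of the 10 genes, namely Smad3, Smad4, Smad6, Skil, Ccn2, Bambi and Inhba, an order that 14.2% of all tested genes had. It was not particular to the 10 genes, since 30 of the 87 tested genes in the lists of other pathway genes below had it too. Smad3 and Smad4 are steady genes, and for Smad3 untreated replicate 1 and treated replicate 2 were nearly tied, at 26.48 and 26.46 CPM. Of the variable genes, Smad7 did not have this order. The pair of treated replicate 3 and untreated replicate 1 was noticed in these genes and gets no test. Likeness was measured as the SD over the 6 libraries of the log2 ratio of CPM of 2 genes, where a small value means a near-constant ratio. Skil and Smad7, both feedback inhibitors, had the value 0.20, so that Skil ranked 20 among all tested genes for its likeness to Smad7, where the median gene had 0.79. Smad6 and Smad7 had 0.36, and Skil and Inhba 0.38.

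Ccn2 followed a partly different order, since treated replicate 1 ranked high for it, below treated replicate 3 and untreated replicate 1, but was among the lower ones for Skil and Smad7. Its closest gene among the other pathway genes was Pmepa1, a TGF-beta-induced inhibitor of SMAD signalling, with an SD of 0.52 where the median gene had 1.24. Each closest gene was picked as the smallest SD among the 87 tested pathway genes. A value below that of the median gene is therefore favoured by the choice itself, and no such pair was tested. Pmepa1 had 226, 77.5 and 129 CPM in untreated libraries, against 268, 91.1 and 276 CPM after NP, highest in the same 3 libraries as Ccn2. Pmepa1 ranked 35 among all tested genes for its likeness to Ccn2. The closest pathway genes to the other variable genes were Fstl1 for Smad7 (0.24, rank 49) and Inhba (0.42, rank 101), Bmpr1a for Skil (0.22, rank 54), Tgfb2 for Smad6 (0.27, rank 10) and Thbs2 for Bambi (0.11, rank 3). For the steady genes they were Smurf1 for Smad2 (0.14, rank 332, median gene 0.42), Rnf111 for Smad3 (0.05, rank 17, median gene 0.40), Bmpr2 for Smad4 (0.12, rank 58, median gene 0.50) and Hdac1 for Tgfbi (0.18, rank 476, median gene 0.44).

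The libraries also differed in clock genes, and the 3 libraries highest in Ccn2, Pmepa1 and Inhba were those with high Arntl, the core clock activator. Arntl was at 40.2 CPM in untreated replicate 1, 26.1 in treated replicate 1 and 26.0 in treated replicate 3, and between 6.18 and 9.83 CPM in the other 3. The 12 clock genes summed to 206 to 337 CPM in the former and 756 to 913 CPM in the latter libraries. This sum mixes genes of opposite direction. Npas2, like Arntl, was higher in the former (24.9 to 44.0 CPM against 2.46 to 7.80 CPM). Clock overlapped between the 2 sets of libraries, and the rest of the list, with Dbp and Nr1d1 among them, was lower in the former. Among the libraries of low Arntl the log2 CPM of Ccn2 was 0.91 higher in the 1 treated library than in the mean of the 2 untreated ones, and among those of high Arntl 0.12 higher in the 2 treated than in the 1 untreated. The same differences were 1.08 and -0.18 for Skil, 0.97 and -0.07 for Inhba, 0.84 and 0.19 for Smad7, and 0.16 and 0.61 for Smad6. In a fit that took the side of Arntl (above or below the midpoint of its log2 CPM range) as a covariate, added after the data were seen, the log2 fold changes were 0.46 for Ccn2, 0.49 for Inhba, 0.51 for Skil, 0.60 for Smad7 and 0.49 for Smad6, with an adjusted p of 1 for each by edgeR. The part of the clock genes in these values was not tested further.

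**Figure D4:**
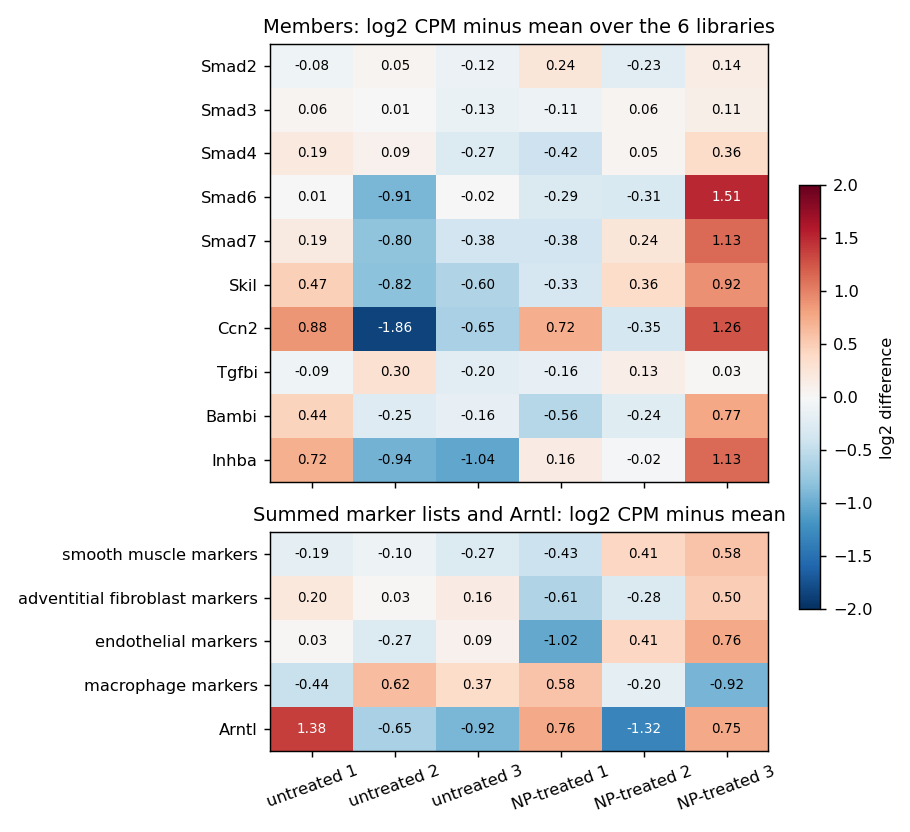
Difference of log2 CPM from the mean over the 6 libraries, for the 10 genes (top) and for the summed markers of smooth muscle, adventitial fibroblasts, endothelium and macrophages and for Arntl (bottom), with 1 column per library. Treated replicate 3 is at 1.51 for Smad6 and 1.13 for Smad7, and untreated replicate 2 at -1.86 for Ccn2.

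Ratios between members within a library do not depend on library scaling. The Smad3 to Smad2 ratio of FPKM was 0.511, 0.453 and 0.465 untreated and 0.364, 0.560 and 0.453 treated. Its mean log2 value differed by -0.07 between groups, less than the spread of the treated libraries. The Smad7 to Smad3 ratio, an inhibitor against a transducer, was 0.891, 0.463 and 0.683 untreated and 0.676, 0.929 and 1.66 treated, a mean log2 difference of 0.63. The Ccn2 to Smad3 ratio was 43.0, 6.61 and 16.9 untreated and 43.6, 18.4 and 54.3 treated, a mean log2 difference of 1.06. With 1 library left out the difference ranged from 0.27 (without treated replicate 3) to 0.92 for Smad7 to Smad3, and from 0.38 (without untreated replicate 2) to 1.73 (without untreated replicate 1) for Ccn2 to Smad3. Exact two-sided permutation tests over the libraries gave p = 0.7, 0.3 and 0.2 for these 3 ratios, and 0.933, 0.6 and 0.6 after Benjamini-Hochberg adjustment over the 4 ratios compared. With 3 libraries against 3 such a test cannot go below 0.1.

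Of 88 other genes of the pathway in 7 lists, 87 were tested and 0 passed the adjusted threshold by edgeR or by DESeq2. At an unadjusted p under 0.05 there were 2, both higher in treated aortas, where 1.93% of all genes passed it in either direction, and groups did not overlap in 5 of the 87, beside 5.67% of all genes. Fold changes were above 1 in 63 and below 1 in 24, beside 55.6% above 1 over all genes, with a median log2 fold change of 0.22, beside 0.04 over all genes. The 6 BMP response genes had a median of 0.45, with 6 of 6 above 0, a count to be read, like those of the lists after it, beside the 55.6% of all genes. Atoh8, a transcription factor, measured 12.0, 7.91 and 6.97 CPM without treatment and 10.2, 25.2 and 21.6 CPM with NP, with a log2 fold change of 1.08 (SE 0.39) and an adjusted p of 1 by edgeR. Id4, an inhibitor of helix-loop-helix factors, had a log2 fold change of 0.66 (SE 0.31).

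Among the 18 activin and BMP ligands, receptors and binding proteins, 12 had a fold above 1 and the median log2 fold change was 0.40. Fstl3, a secreted protein that binds activin, had 22.4, 16.8 and 15.7 CPM in untreated libraries, against 28.7, 22.0 and 37.0 CPM after NP. Only treated replicate 2 lay within the untreated range, and the log2 fold change was 0.67 (SE 0.25, unadjusted p = 0.0317 and adjusted p = 1 by edgeR). The ligand Bmp6 measured 14.3, 4.10 and 11.8 CPM without treatment and 2.65, 45.7 and 33.1 CPM with NP, a log2 fold change of 1.43 (SE 0.90) that was 0.83 without treated replicate 2, 1.96 without treated replicate 1 and 0.85 by limma-voom. Treated replicate 1 had its lowest value and the other treated libraries its highest.

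The list of TGF-beta ligands and receptors, 12 genes, had a median log2 fold change of 0.18, with 9 above 0. It also holds Ltbp1, Ltbp3, Thbs1 and Lrrc32, which encode neither ligands nor receptors, and its largest value was that of Thbs1, 0.98 (SE 0.80). Tgfbr1, the type I receptor that phosphorylates SMAD2 and SMAD3, had 0.56 (SE 0.34), 0.21 without treated replicate 1 and 0.37 without untreated replicate 2, and the ligand gene Tgfb2 had 0.49 (SE 0.38), which was -0.03 without treated replicate 3. The 3 SMADs of the BMP branch were all above 0, with Smad9 at 0.63 (SE 0.63) and Smad5 at 0.25 (SE 0.40), and Smad5 at -0.19 without treated replicate 3. Of the 13 genes listed as ubiquitin ligases, deubiquitinases and phosphatases that act on SMADs, 9 were above 0. Among these 9 was Pmepa1, which encodes none of these enzymes and had the largest value of the list, 0.55 (SE 0.52). Smurf1, the partner of SMAD7, had 69.2, 74.3 and 72.3 CPM in untreated libraries, against 89.0, 78.0 and 93.8 CPM after NP. The Smurf1 groups did not overlap, and its log2 fold change was 0.27 (SE 0.16). Usp9x, a deubiquitinase that acts on SMAD4, had 0.25 (SE 0.17). Of 13 cofactors and co-repressors tested 9 were above 0, among them the SMAD anchor Zfyve9 at 0.29 (SE 0.22), while the co-repressor Sin3a was at -0.27 (SE 0.19).

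The other 22 TGF-beta response genes had a median log2 fold change of 0.20, with 15 above 0 and 7 below. The member of smallest p-value, the cell cycle inhibitor Cdkn1a, lay on the low side, with 140, 199 and 208 CPM in untreated libraries against 147, 143 and 97.7 CPM after NP and a log2 fold change of -0.50 (SE 0.25, adjusted p = 1 by edgeR). Tagln, an actin-binding protein of smooth muscle, had 0.39 (SE 0.29). Smooth muscle markers, of which Tagln and Acta2 are also among these 22 genes, had a fold above 1 in 6 of 6 genes, beside 55.6% of all genes. The groups overlapped in each of the 6 markers, and their part in the values of the response genes was not tested.

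**Figure D5:**
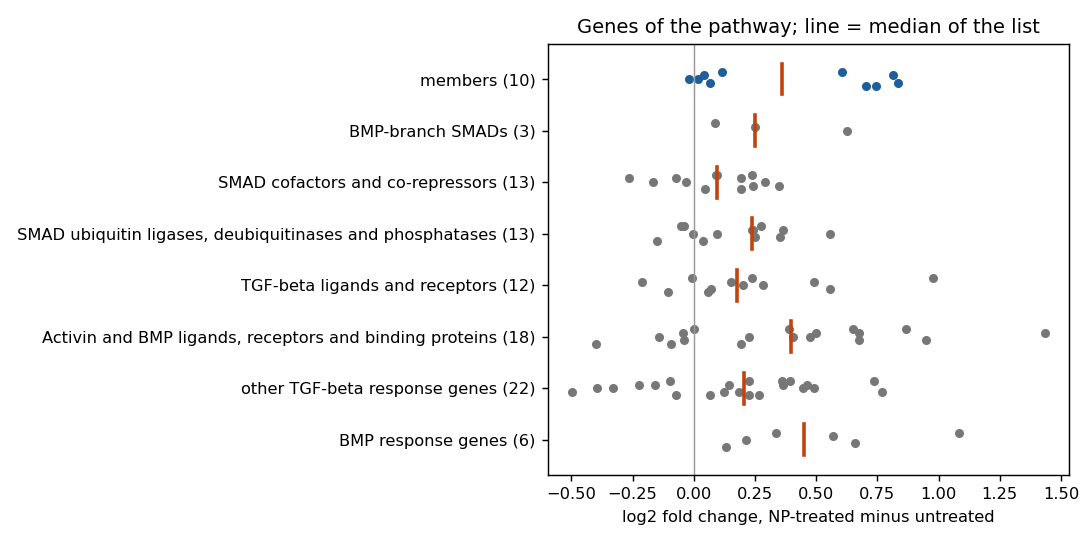
Log2 fold change, treated minus untreated, of each tested gene (points) among the 10 SMAD and response genes and in 7 lists of pathway genes, with the number tested in brackets and the median as an orange line. Medians run from 0.09 for cofactors and co-repressors to 0.45 for BMP response genes, and no gene shown passed the adjusted threshold.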

How the data were processed

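RNA abundance was measured in 6 libraries of abdominal aorta with aneurysm, 3 of them NP-treated and 3 untreated. Since no label states that the libraries are from separate rats, p-values refer to the spread among these libraries, which may be technical. The deposited table gives whole-number counts per gene that had not been normalized, and FPKM values that the authors scaled by gene length and library size, both per the file headers. HISAT2 2.0.4 is listed, per the submitters' processing notes, and the series design text names SOAPnuke. No strand setting, annotation, genome build or counting tool is named in the sources used here. In untreated replicate 1, 143 genes had a single count and 371 had 2, an excess of 2 seen in every library, and the meaning of 1 count is therefore open.

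Genes were kept with filterByExpr at a minimum count of 10 and tested with edgeR 4.0.16 (R 4.3.3; quasi-likelihood, TMM, group only), with Benjamini-Hochberg adjustment over all tested genes at 0.05. Each standard error is the fold change divided by the root of F. CPM uses TMM-scaled library sizes, and log2 CPM a prior count of 2. The fit was tested on simulated data. DESeq2 1.42.0, limma 3.58.1 on voom and on log2 FPKM with pseudocounts of 1 and 0.1, other scalings and left-out libraries were alternatives. The genes, lists, motifs and tests were chosen with earlier results of these data known. Pathway genes named were the up to 2 of smallest p-value per list and the closest one to each of the 10 genes. The RefSeq table of GRCr8 was used for promoter sequences and gene order, and no protein sequence was used here.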

Additional observations from a re-analysis of the deposited data

How the results depend on the processing

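The number of the 10 genes called was 0 under every alternative run, and the number of all genes called was 0 except by DESeq2 (26) and by limma on log2(FPKM + 1) (1). With each library left out in turn the median log2 fold change of the 10 genes ranged from 0.03 to 0.65. Over those fits it ranged from -0.050 to 1.13 for Smad6, -0.013 to 0.095 for Smad3, -0.18 to 0.19 for Smad4, -0.12 to 0.15 for Tgfbi, -0.44 to 0.32 for Bambi, -0.19 to 0.60 for Smad5, -0.031 to 0.69 for Tgfb2, -0.27 to 0.43 for Thbs2 and -0.011 to 0.096 for Rnf111. Values near 0 changed sign in other fits too. Smad4 and Bambi were at -0.0036 and -0.015 with the replicate number as a block, -0.0015 and -0.018 by limma-voom, -0.016 and -0.0061 on log2(FPKM + 1), and -0.021 and -0.032 on log2(FPKM + 0.1). With library weights Tgfbi was at 0.091, and with the side of Arntl as a covariate Smad4, Tgfbi, Bambi and Thbs2 were at -0.017, 0.040, -0.11 and -0.0092. The cause of these changes of sign was not tested. Of the 496 comparisons of a named gene with an alternative, 28 changed sign and 0 changed side of the threshold.

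The block called 0 of the 10 genes and 0 of all genes. Same-numbered libraries did not deviate together, with correlations of -0.17, 0.07 and -0.27 for numbers 1, 2 and 3, and untreated replicate 1 correlated best with treated replicate 3 (0.37), so the numbers were not taken as pairs. At this number of libraries the 95% interval of the most variable of the 10 genes, Ccn2, ran from 0.567-fold to 5.45-fold.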

Other observations

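Smad3 and Smad6 are direct neighbours in the RefSeq annotation of GRCr8, with 0 annotated genes between them. Their within-group SD of log2 CPM was 0.11 and 0.83. Smad2 and Smad7 are separated by 8 annotated genes, and their SDs were 0.19 and 0.64.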
